A study of Homo sapiens with 8 samples.

Results

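The IFIT and OAS genes encode antiviral proteins that bind RNA. The set examined here was IFIT1, IFIT2, IFIT3, IFIT5, OAS1, OAS2, OAS3 and OASL, chosen by gene symbol with no measured value in the rule. It was chosen with earlier results of these data known, so the shares of all genes set beside it are no blind comparison. Each of the 8 genes had 1 probe set with a single symbol, so the set comprised 8 of 33297 probe sets and 8 of 18417 named genes. The question was how these genes stood on each array of a study that transfected prostate cancer cells with miR-29b or with an siRNA against TET2, and how far the control arrays differed from each other.

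RNA was measured on 8 arrays, from 2 established prostate cancer lines and 4 constructs, with 1 array per line and construct. LNCaP cells depend on androgen and express prostate kallikreins, whereas DU145 cells do not depend on it. Each line was given either nc (a negative control miRNA), miR-29b, siControl (a control siRNA) or siTET2 (an siRNA that targets TET2), and RNA was taken 72 h later. All cells grew in RPMI medium with 10% FBS, every array carried a transfected small RNA, and no untransfected cells were analysed here. The labels give no doses, no sequences of the constructs and no separate cultures. Values are deposited log2 expression values, and a difference of 1 log2 unit is a 2-fold difference between the arrays compared.

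Cells sense foreign RNA through RIG-I-like receptors and Toll-like receptors, whose signalling turns on interferon genes. Secreted interferon then acts through its receptors and JAK-STAT signalling on promoters that carry interferon-stimulated response elements, and IRF3 can act on some of the same promoters directly. IFIT1 binds RNA that lacks the cap modification of the cell's own messages, IFIT2 and IFIT3 form complexes with it, and IFIT5 binds RNA with a triphosphate end on its own. OAS1, OAS2 and OAS3 are enzymes that, on binding double-stranded RNA, make short oligoadenylates that activate RNase L. OASL is a related protein without that enzyme activity that is known to enhance RIG-I signalling.

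The RNA that was transfected and the promoters of the genes are shown first, since all 4 constructs are short RNAs and the members differed together on some arrays. Mature miR-29b-3p, credited to RefSeq (GRCh38.p14), is encoded at chr1:207802450-207802472 and at chr7:130877467-130877489, minus strand in both. The labels name no arm, so miR-29b-3p is shown as the form usually meant by the name. Capitals mark the seed, bases 2 to 8.
miR-29b-3p: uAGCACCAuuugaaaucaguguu

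Promoter windows from 250 bases before to 50 bases after an annotated start were matched by symbol for 5 of the 8 genes (RefSeq, GRCh38.p14, plus strand), with 2 windows for IFIT3. The motif searched was GAAANNGAAA on both strands (TTTCNNTTTC as read on the other strand), the core of the interferon-stimulated response element. It was present in 5 of 6 windows and in 4 of 5 genes, against 3.57% of 35116 promoters. A form with a gap of 1 base, GAAANGAAA, was added after the windows had been seen and is present in 3.12% of promoters. Either form is present in 6.40% of promoters, and in the windows of all 5 genes. Capitals below mark both forms, which overlap in OAS3. The windows shown are IFIT1 at chr10:89392373-89392672, IFIT3 at chr10:89327747-89328046, IFIT5 at chr10:89414318-89414617, OAS1 at chr12:112906712-112907011 and OAS3 at chr12:112938224-112938523.
IFIT1: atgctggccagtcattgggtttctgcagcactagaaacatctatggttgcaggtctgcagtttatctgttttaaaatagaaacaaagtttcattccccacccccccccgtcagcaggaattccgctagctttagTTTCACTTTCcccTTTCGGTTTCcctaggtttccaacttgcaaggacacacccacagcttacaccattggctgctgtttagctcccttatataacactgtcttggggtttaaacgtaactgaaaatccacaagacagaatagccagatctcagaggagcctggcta
IFIT3: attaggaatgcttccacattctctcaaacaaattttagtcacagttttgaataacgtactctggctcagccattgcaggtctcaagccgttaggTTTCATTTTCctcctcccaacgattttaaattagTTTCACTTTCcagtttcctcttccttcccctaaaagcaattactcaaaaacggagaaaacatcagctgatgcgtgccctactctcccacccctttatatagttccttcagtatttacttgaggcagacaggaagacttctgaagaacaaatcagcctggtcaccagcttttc
IFIT5: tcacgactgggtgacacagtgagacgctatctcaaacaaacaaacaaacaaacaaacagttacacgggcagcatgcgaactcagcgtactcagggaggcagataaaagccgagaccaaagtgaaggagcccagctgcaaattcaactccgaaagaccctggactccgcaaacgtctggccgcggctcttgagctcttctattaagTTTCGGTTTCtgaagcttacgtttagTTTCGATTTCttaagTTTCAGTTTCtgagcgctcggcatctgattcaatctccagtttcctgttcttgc
OAS1: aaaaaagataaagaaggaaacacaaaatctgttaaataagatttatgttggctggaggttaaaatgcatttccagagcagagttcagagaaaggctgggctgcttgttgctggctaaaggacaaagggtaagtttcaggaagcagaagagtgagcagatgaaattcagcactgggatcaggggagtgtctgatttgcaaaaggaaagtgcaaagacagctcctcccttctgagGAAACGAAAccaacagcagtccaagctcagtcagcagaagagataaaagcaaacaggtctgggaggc
OAS3: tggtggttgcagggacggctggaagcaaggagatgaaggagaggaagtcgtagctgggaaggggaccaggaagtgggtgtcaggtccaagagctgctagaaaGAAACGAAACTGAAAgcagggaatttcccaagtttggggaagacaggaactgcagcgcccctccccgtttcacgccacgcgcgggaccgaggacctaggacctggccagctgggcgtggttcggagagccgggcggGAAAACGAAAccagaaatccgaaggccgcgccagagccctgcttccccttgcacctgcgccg

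IFIT1 held 2 matches of the 2-base gap form, the nearer ending 94 bases before the start. IFIT5 held 3, and IFIT3 held 2 in the window shown and 2 in the other, where a match of the 1-base form overlaps one of them. OAS3 held 2, one of them 3 bases from the start. OAS1 held the 1-base form only, at 17 to 9 bases before its start. IFIT2, OAS2 and OASL are named without a sequence. A match is a run of letters and not a measured binding site. The number of matches did not order the genes by their differences: IFIT5 held more matches than IFIT1, and its difference between miR-29b and nc in LNCaP was 0.56 against 1.92.

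Before the members, the arrays were checked against their labels. Array medians over all probe sets were 7.10 to 7.17 in LNCaP and 6.59 to 6.66 in DU145, so levels were compared within a line. TET2, the target of the siRNA, was lowest on the siTET2 array of each line, with siTET2 minus siControl at -1.12 in LNCaP and -1.25 in DU145, and -0.85 and -0.91 in its other probe set. Among 7 measured markers of LNCaP, those above the median of named genes numbered 6 or 7 on LNCaP arrays and 1 on DU145 arrays. Of 12 measured DU145 markers, 10 did so on DU145 arrays and 2 on LNCaP arrays. None of 10 immune cell markers did so on any array, with a summed log2 level of 56.6 to 59.5 in LNCaP and 48.9 to 51.1 in DU145, and of 10 fibroblast markers 0 or 1 did.

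In LNCaP, every one of the 8 genes was highest on the miR-29b array, and 4 of them (IFIT2, IFIT1, OASL and IFIT3) were at least 2-fold higher than with nc. Over all named genes, 0.0923% were at least 2-fold higher in that comparison, and 21.7% had their highest LNCaP value on the miR-29b array. With siTET2, no member was 2-fold higher or lower than with siControl. In DU145 the members were higher on both siRNA arrays than on both miRNA arrays, and miR-29b and nc differed by less than 2-fold for each of them. No group had a replicate, so these differences carry no p-value, and the effect of a construct, of a dish and of an array cannot be told apart.

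**Figure D1:**
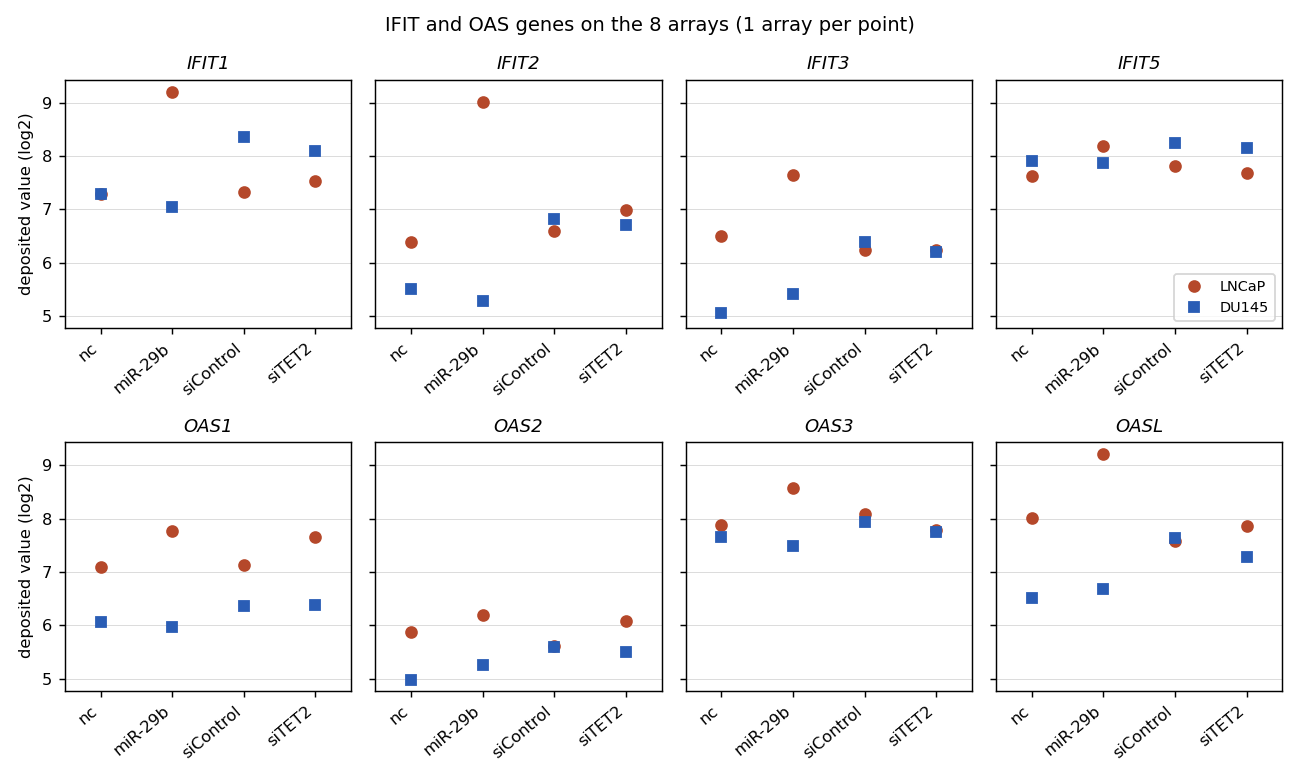
Deposited log2 value of each IFIT and OAS gene (y axis) on the 4 arrays of LNCaP (circles) and DU145 (squares), 1 array per point. In LNCaP the miR-29b array is highest in all 8 panels, from 6.18 for OAS2 to 9.22 for OASL, and in DU145 the siControl and siTET2 arrays lie above nc and miR-29b in all 8 panels.

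IFIT2, a protein that binds RNA with its relatives IFIT1 and IFIT3, had log2 values in LNCaP of 6.39 with nc, 9.01 with miR-29b, 6.59 with siControl and 6.98 with siTET2. The miR-29b array stood apart, 2.03 log2 units above the next highest. Its difference from nc was 2.62, or 6.15-fold, and ranked 1 of 18417 named genes. Against siControl it was 2.42, also rank 1. In DU145 IFIT2 stood at 5.51 with nc, 5.28 with miR-29b, 6.82 with siControl and 6.71 with siTET2. There the siRNA arrays were the high ones, and miR-29b was the lowest of the 4.

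IFIT1, which binds RNA without the cell's own cap modification, stood in LNCaP at 7.29 with nc, 9.20 with miR-29b, 7.33 with siControl and 7.53 with siTET2. The 3 arrays other than miR-29b lay within 0.24 of each other, and miR-29b lay 1.92 above nc (3.78-fold, rank 2). In DU145 the values were 7.28 with nc, 7.04 with miR-29b, 8.36 with siControl and 8.10 with siTET2. Here the siRNA arrays were high, and the miR-29b array was again the lowest.

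IFIT3, which stabilises IFIT1 on its RNA, read 6.50 with nc, 7.64 with miR-29b, 6.24 with siControl and 6.23 with siTET2 in LNCaP. Its miR-29b array was the single high one, 1.14 above nc (2.21-fold, rank 12). In DU145 it read 5.05 with nc, 5.42 with miR-29b, 6.39 with siControl and 6.20 with siTET2, so that nc and not miR-29b was lowest. IFIT5, the member of the family that binds triphosphate RNA on its own, covered the smallest range of the 8 genes in both lines, 0.56 in LNCaP and 0.36 in DU145. Its LNCaP values were 7.63, 8.19, 7.82 and 7.68 and its DU145 values 7.91, 7.87, 8.23 and 8.15, for nc, miR-29b, siControl and siTET2. The order of the arrays was nonetheless that of the relatives, with miR-29b highest in LNCaP and both siRNA arrays highest in DU145.

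OASL, the member without synthase activity, had the largest LNCaP difference of the OAS family. Its values were 8.02 with nc, 9.22 with miR-29b, 7.58 with siControl and 7.85 with siTET2. The miR-29b array was 1.20 above nc (2.29-fold, rank 10) and 1.64 above siControl, as the control arrays themselves differed by -0.44 (siControl minus nc). In DU145 OASL stood at 6.51 with nc, 6.68 with miR-29b, 7.64 with siControl and 7.29 with siTET2, and siControl was the highest array.

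The 3 oligoadenylate synthases differed less than OASL. OAS3, the largest of these enzymes, had LNCaP values of 7.88, 8.57, 8.08 and 7.79 and DU145 values of 7.66, 7.48, 7.93 and 7.75 (nc, miR-29b, siControl, siTET2), with miR-29b 0.69 above nc in LNCaP. In DU145 its siRNA arrays cleared the miRNA arrays by only 0.09. OAS1 had LNCaP values of 7.09 with nc, 7.77 with miR-29b, 7.13 with siControl and 7.66 with siTET2, so that siTET2 came close to miR-29b. Its DU145 values lay between 5.97 and 6.39. OAS2 had the lowest LNCaP difference between miR-29b and nc of the 8 genes, 0.31, with 5.88, 6.18, 5.61 and 6.09 in LNCaP and 4.98, 5.26, 5.60 and 5.50 in DU145 in the same order of constructs. In OAS1 and OAS2 the miR-29b array of LNCaP exceeded the siTET2 array by only 0.11 and 0.10.

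Summed up over the members, miR-29b minus nc in LNCaP had a median of 0.92 and ran from 0.31 to 2.62, against a median of -0.02 over all named genes. The IFIT genes had a median of 1.53 and the OAS genes 0.68. With siControl as the control array, the median was 1.02 and the same 4 genes were at least 2-fold higher, in a comparison where 0.076% of all named genes were. The control arrays of LNCaP, siControl minus nc, gave a median of 0.04 for the members. Of these, 5 of 8 were above 0 (39.9% of named genes) and 0 at 2-fold (0.163% of named genes). Both miR-29b comparisons use the same miR-29b array and are not independent of each other.

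For siTET2 minus siControl in LNCaP, the median of the members was 0.24, from -0.29 for OAS3 to 0.53 for OAS1, against 0.04 over all named genes. Of the 8 genes, 5 lay above 0, as did 58.8% of named genes. At 2-fold higher there were 0 members and 0.038% of named genes. OAS1, OAS2 and IFIT2 were the 3 members with the largest values, at 0.53, 0.47 and 0.39. Only OAS1 and OAS2 lay outside the range that held the central 95% of named genes in this comparison, which ended at 0.42.

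**Figure D2:**
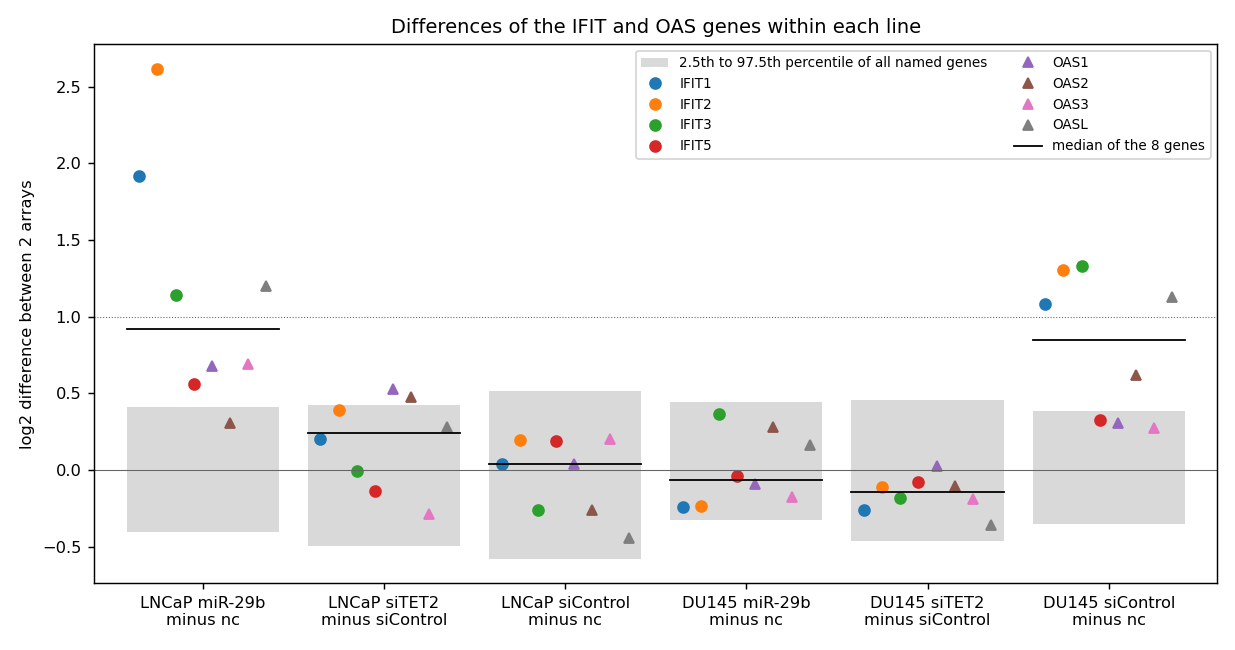
Log2 difference (y axis) of each IFIT gene (circles) and OAS gene (triangles) in the 4 treatment comparisons and both control pairs, with the median of the 8 genes (black line) and the 2.5th to 97.5th percentile of all named genes (grey). The medians are 0.92 for miR-29b minus nc in LNCaP and 0.85 for siControl minus nc in DU145, and lie between -0.15 and 0.24 in the other 4 comparisons.

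In DU145 the treatment differences against their matched controls were small. For miR-29b minus nc the median was -0.07, with 3 of 8 genes above 0 (IFIT3 0.37, OAS2 0.28 and OASL 0.16) and 0 at 2-fold. Over all named genes, 49.0% were above 0 and 0.00543% at least 2-fold higher. For siTET2 minus siControl the median was -0.15, OAS1 alone lay above 0 at 0.02 (51.5% of named genes did), and 0 were at 2-fold (0.0923% of named genes). The lowest of these was OASL at -0.36.

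The control arrays of DU145 differed more in these genes than the treatments did. For siControl minus nc, the 8 genes were all above 0, as were 50.3% of named genes. The members had a median of 0.85, against 0.00 over all named genes. Of the members 4 were at least 2-fold higher, and these were the genes that were 2-fold higher with miR-29b in LNCaP: IFIT3 at 1.33 (rank 2 of 18417), IFIT2 at 1.31 (rank 3), OASL at 1.13 (rank 5) and IFIT1 at 1.08 (rank 7). Only 7 named genes, 0.038%, were at least 2-fold higher in that comparison. OAS2 followed at 0.62, IFIT5 at 0.32, OAS1 at 0.30 and OAS3 at 0.27.

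With that gap, the choice of control turned the direction of the siTET2 median in DU145, and moved the size of the miR-29b median but not its sign. Against siControl in place of nc, miR-29b had a median of -0.71, with IFIT2 at -1.54 and IFIT1 at -1.32 at least 2-fold lower, in a comparison where 0.0597% of named genes were 2-fold lower. Against nc in place of siControl, siTET2 had a median of 0.64, with IFIT2 at 1.20 and IFIT3 at 1.15 at least 2-fold higher, where 0.19% of named genes were. These comparisons share control arrays with those above and give no further support to them.

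Both siRNA arrays of DU145 lay above both of its miRNA arrays in 8 of 8 members, an order shown by 19% of named genes. This order was described after the values had been seen and has no test. The mean of the siRNA arrays minus the mean of the miRNA arrays was 1.37 for IFIT2 (rank 1 of 18417), 1.07 for IFIT1, 1.06 for IFIT3 and 0.87 for OASL, and between 0.27 and 0.43 for the other 4. Over the 8 genes its median was 0.65, against -0.01 over all named genes. Among the siRNA arrays, siControl was the higher in 7 members and siTET2 in OAS1.

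As levels differ in scale between the lines, the place of a gene within each array was compared as its percentile among named genes. In LNCaP IFIT2 stood at the 27.4th percentile with nc and the 71.1st with miR-29b, and in DU145 at the 25.7th with nc and the 42.5th with siControl. IFIT1 ran from the 42.8th to the 74.1st in LNCaP and from the 45.0th to the 64.5th in DU145. OAS2 stayed between the 17.8th and 26.5th percentile on all 8 arrays, so its differences are those of a probe set with a low signal. IFIT3 also lay below the median of named genes on all 8 arrays, between the 20.3rd and 49.1st percentile. IFIT2 and OAS1 did so on every array except LNCaP miR-29b, so their LNCaP differences start from a dim level. In these cultures a larger share of cells with a transcript and more of it per cell cannot be told apart.

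The large LNCaP miR-29b difference and the large DU145 control difference share no array. The 17 genes at least 2-fold higher with miR-29b than with nc in LNCaP and the 7 at least 2-fold higher with siControl than with nc in DU145 had 5 genes in common, 29.4% of the first list and 71.4% of the second. They were IFIT1, IFIT2, IFIT3, OASL and CXCL8, a chemokine gene. Other interferon-induced genes were high in the first comparison and not in the second, and are singled out here after their values were seen. RSAD2, which encodes viperin, differed by 1.89 in LNCaP and 0.04 in DU145. IFI44L differed by 1.27 and 0.14, and CXCL10, a chemokine, by 1.22 and 0.20. RSAD2, IFI44L and CXCL10 read between 3.33 and 4.42 on all DU145 arrays, where the median of named genes was 7.36 to 7.42. Their DU145 differences are thus those of probe sets with a low signal. IFI6, a mitochondrial and endoplasmic reticulum protein, lay nearer to the members at 1.17 and 0.79.

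**Figure D3:**
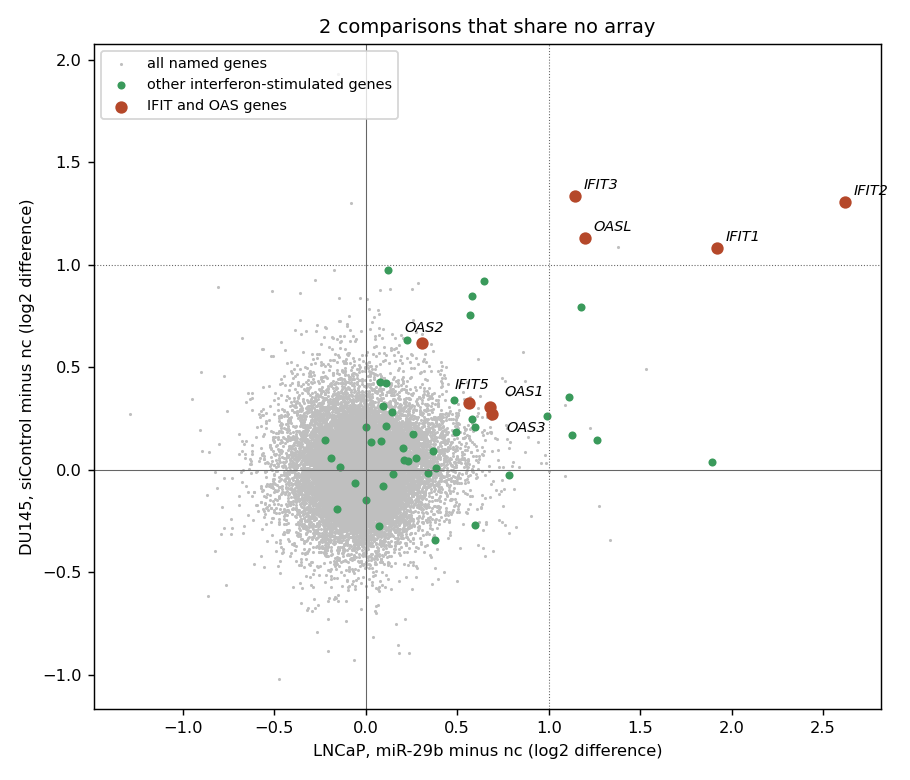
Log2 difference of siControl minus nc in DU145 (y axis) against miR-29b minus nc in LNCaP (x axis), 1 point per named gene, with the other interferon-stimulated genes in green, the IFIT and OAS genes in red and 2-fold marked by dotted lines. IFIT2 lies at 2.62 and 1.31, IFIT1, IFIT3 and OASL are also past 2-fold on both axes, and RSAD2 lies at 1.89 on the x axis and 0.04 on the y axis. In DU145 RSAD2 had a low signal, 3.86 with nc and 3.90 with siControl.

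Limma, with line and construct as terms, estimated the effect that a construct had in common in LNCaP and DU145 from the 8 arrays together. Its spread is the departure of arrays from equal construct effects in both lines, and the labels name no separate cultures, so a p-value here covers only how these arrays spread, which may be technical. Of the 8 members, 4 (IFIT1, IFIT5, OAS3 and OASL) were bright enough to enter among 9209 genes, and their number is no evidence of a change. For miR-29b minus nc, IFIT1 had a common effect of 0.84 (SE 0.598) and OASL 0.68 (SE 0.483), with a limma adjusted p of 0.995 for each of the 4. No gene of the 9209 passed (0%), while 344 had an unadjusted p below 0.05. The estimate rested on 1 array: without the LNCaP miR-29b array the effects of the 4 members ran from -0.51 to -0.09, and without the DU145 miR-29b array from 0.62 to 2.19.

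For siTET2 minus siControl the common effects of the 4 members lay between -0.24 and -0.03, with limma adjusted p-values from 0.673 to 0.988, in a fit where 35 genes, 0.38%, passed and 1266 had an unadjusted p below 0.05. The median of the 4 siTET2 effects, -0.07, was -0.60 without the LNCaP siControl array, -0.44 without the DU145 siTET2 array, 0.20 without the LNCaP siTET2 array and 0.39 without the DU145 siControl array. The 35 calls became 136 without the LNCaP siTET2 array, 11 without either miR-29b array, and 0 without either siControl array or the DU145 siTET2 array. For siControl minus nc they lay between 0.24 and 0.56, with adjusted p-values from 0.492 to 0.731, and 0% of genes passed (1212 with an unadjusted p below 0.05). The median of the 4 control effects, 0.30, was -0.07 without the DU145 siControl array and 0.77 without the LNCaP siControl array.

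A limma fit of each line against the mean of both its control arrays was made as well. Here the only spread is that between nc and siControl within each line, pooled over both lines. A gene thus has the same SE in LNCaP and DU145, and nc and siControl are different constructs and not replicates. For IFIT1, siControl minus nc was 0.04 in LNCaP and 1.08 in DU145. In LNCaP, miR-29b gave IFIT1 an effect of 1.90 (SE 0.304, unadjusted p = 3.86e-05, limma adjusted p = 0.163) and OASL 1.42 (SE 0.333, adjusted p = 0.681). OAS3 at 0.59 and IFIT5 at 0.47 had adjusted p-values of 0.954 and 1. No gene passed (0%), and 278 of 9209, or 3.02%, had an unadjusted p below 0.05. With no filter on level, all 8 members entered, and IFIT2 had 2.52 (SE 0.389, limma adjusted p = 0.222), IFIT3 1.27 (SE 0.398), OAS1 0.66 (SE 0.185) and OAS2 0.44 (SE 0.244). In that fit 7 of 8 members had an unadjusted p below 0.05, against 2.18% of all genes, and OAS2 did not. All 8 were read from the same miR-29b array and the same controls. Their count is thus not one of independent results and is no test of the set.

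In DU145 the same fit gave miR-29b effects of -0.78 for IFIT1 (SE 0.304, limma adjusted p = 1), -0.40 for OASL, -0.31 for OAS3 and -0.20 for IFIT5, and 0% of genes passed (113 with an unadjusted p below 0.05). With siTET2 the 4 members lay between -0.19 and 0.22 in LNCaP, where 0.0326% of genes passed, and between -0.05 and 0.28 in DU145, where 0.934% passed. Their limma adjusted p-values were at least 0.801.

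The difference of the miR-29b effect between the lines, LNCaP minus DU145, was tested in this fit. It was 2.68 for IFIT1 (SE 0.430, limma adjusted p = 0.360), 1.82 for OASL (SE 0.471), 0.90 for OAS3 and 0.67 for IFIT5, the last 3 with an adjusted p of 1. No gene passed (0%), and 134 had an unadjusted p below 0.05. The difference of the siTET2 effect lay between -0.15 and -0.06 for the 4 members, with 0% of genes past the threshold and 433 at an unadjusted p below 0.05. With a variance prior that follows the mean level, IFIT1 passed for miR-29b in LNCaP (limma adjusted p = 0.0313) and for the difference between the lines (0.0317). Of 9209 genes, 1 then passed as higher and 1 as lower in LNCaP, and 1 as higher for the difference. These p-values still rest on the gap between unlike control constructs. In DU145, miR-29b had IFIT1 at -0.24 against nc and -1.32 against siControl, so the difference between the lines depends on the control array.

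**Figure D4:**
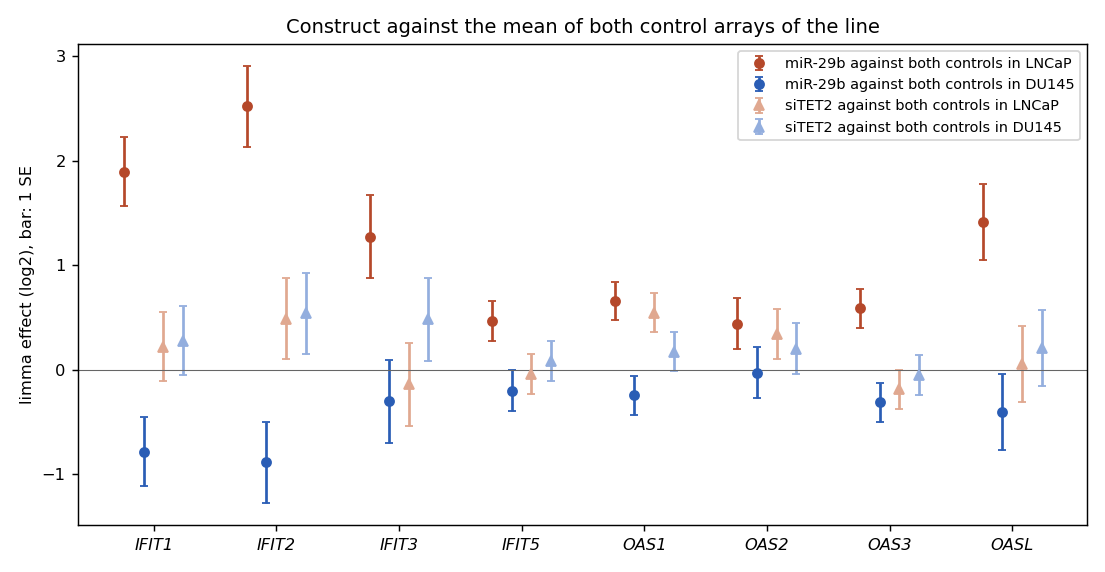
Effect on the log2 scale (y axis) of miR-29b (circles) and siTET2 (triangles) against the mean of both control arrays in LNCaP (reds) and DU145 (blues), from the limma fit with no filter on level, with bars of 1 SE. IFIT2 lies at 2.52 with miR-29b in LNCaP and at -0.89 in DU145, and the siTET2 effects lie between -0.19 and 0.55.

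Of the other genes of the pathway, 92 were measured and 45 were bright enough for the limma fits. None passed in any of the 9 comparisons drawn from both fits, and from 1 to 7 of them had an unadjusted p below 0.05. By role, the genes upstream of the members stood close to 0 for miR-29b minus nc in LNCaP, where 45.3% of named genes lay above 0. The median was 0.09 for sensors and their signalling (9 of 13 above 0), -0.04 for ligands (3 of 8), 0.12 for receptors (4 of 6), -0.03 for JAK-STAT and interferon regulatory factors (3 of 8) and 0.04 for inhibitors of signalling (5 of 8). For enzymes of the double-stranded RNA response it was 0.11, and 6 of 7 lay above 0. For the 43 other interferon-stimulated genes it was 0.23, and of these 38 lay above 0 and 5 were at least 2-fold higher.

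Of each role, the genes with the largest miR-29b minus nc difference in LNCaP are given next, among those at or above the median of named genes on 1 or both arrays. RIGI, which encodes the sensor RIG-I, was 0.86 higher with miR-29b than with nc in LNCaP, TLR3, an endosomal receptor of double-stranded RNA, 0.52 higher, and MAVS, the adaptor of RIG-I, differed by -0.40. Against siControl these 3 were at 0.83, 0.17 and -0.10. EIF2AK2, the kinase PKR that double-stranded RNA activates, was at 0.64, but only 0.09 against siControl. IRF9, the DNA-binding subunit of the factor that interferon activates, was at 0.41, and TRIM21, a ubiquitin ligase, at 0.47, with 0.16 and 0.20 against siControl. Of the other interferon-stimulated genes, IFI6 was at 1.17, DTX3L at 1.13 and IFITM1, a membrane protein that blocks viral entry, at 0.99. Against siControl these 3 were at 0.58, 0.22 and 0.71. With nc, RIGI, TLR3, IRF9, TRIM21 and IFITM1 were below the median of named genes. They entered only through the miR-29b array, where they were high, so this filter favours upward differences. Of 8 measured interferon ligand genes, only IFNL3, a type III interferon, was at or above the array's median of named genes, and it differed by -0.05 from nc. IFNL1, below that level, was 0.66 above nc and 0.96 above siControl with miR-29b. IFNB1, the interferon beta gene, read 4.30 with nc, 4.51 with miR-29b, 4.14 with siControl and 4.27 with siTET2 in LNCaP.

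For siControl minus nc in DU145, the median was 0.14 for the other interferon-stimulated genes and -0.06 for sensors. Of the former, 33 of 43 lay above 0, against 50.3% of named genes, and 0 were at 2-fold. Only 16 of the 43 were at or above the median of named genes on 1 or both arrays. Of those 16, 10 lay above 0, and their median was 0.05. RIGI was at 0.57, IRF9 at 0.43, IFI16, a DNA sensor, at 0.97, IFI44 at 0.92 and DDX60, a helicase, at 0.85. These genes were picked after their values had been seen. IFI16, IFI44 and DDX60 were below the median of named genes on both arrays. Of the sensors 6 of 13 lay above 0. Other listed genes went the other way, with STING1 at -0.39, MAVS at -0.37 and IFI35 at -0.34. For siTET2 minus siControl, the other interferon-stimulated genes at or above the median of named genes differed most in LNCaP in SAMD9 (0.55), DTX3L (-0.52) and IFI6 (0.50), and in DU145 in IFITM3 (0.43), PSMB9, a subunit of the immunoproteasome (0.40), and PARP14 (0.37). Dimmer genes of that list differed more, with TRIM22 at 0.92 and BST2 at 0.56 in LNCaP, and SAMD9 at 0.69 and RTP4 at 0.51 in DU145. Of the other roles in DU145, PRKRA, a protein that activates PKR, was at -0.71, MAVS at 0.52 and DICER1, the enzyme that cuts double-stranded RNA, at 0.47. IRF1, a transcription factor of the interferon response, was 0.66 higher with siTET2 in DU145 and differed by -0.06 in LNCaP. SAMD9 in LNCaP, and IFITM3 and IRF1 in DU145, reached the median of named genes only on the siTET2 array, where they were higher.

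**Figure D5:**
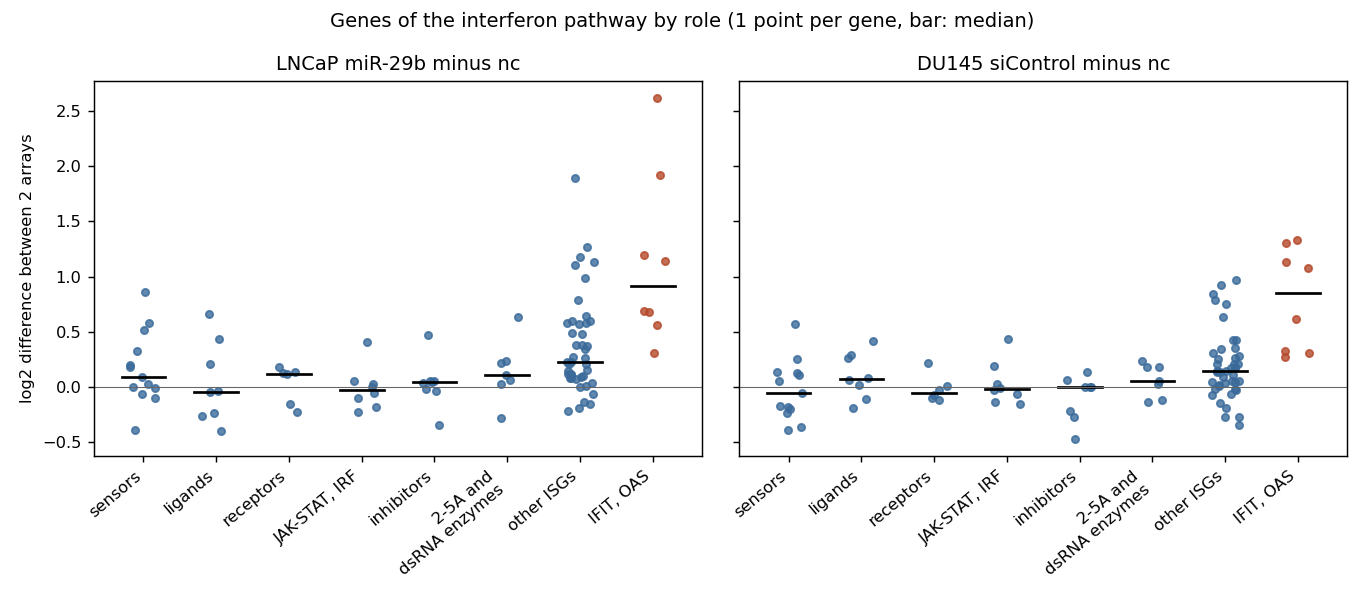
Log2 difference (y axis) of each gene of the interferon pathway, grouped by role (x axis), for miR-29b minus nc in LNCaP (left) and siControl minus nc in DU145 (right), with a bar at each group's median. The IFIT and OAS genes have medians of 0.92 and 0.85, the other interferon-stimulated genes (ISGs) 0.23 and 0.14, and the remaining roles lie between -0.06 and 0.12.

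The genes whose profile was most like that of the members were found by the root mean square difference between line-centred log2 profiles over the 8 arrays, among 9201 genes with a wide range in LNCaP. The median profile of the members was the reference, and OASL lay nearest to it of the 8 genes (0.159) and IFIT2 farthest (0.514). RIGI was the closest non-member (0.160), followed by HERC5, a ligase for the ubiquitin-like protein ISG15 (0.184), BEST1, a chloride channel (0.200), CLDN22, a claudin (0.216), and DDX60 (0.221). IFNL1, a type III interferon, and MX1, an antiviral GTPase, followed at 0.222 each, then CXCL11, a chemokine, at 0.225, PMAIP1, a BCL2 family protein, at 0.228 and PPIL6 at 0.233. CLDN22 was dim, between 3.77 and 4.83 on all arrays. BEST1, DDX60, IFNL1, MX1, CXCL11 and PPIL6 were also below the median of named genes on every array. RIGI read 7.61, 8.47, 7.64 and 7.94 in LNCaP and 7.70, 7.70, 8.27 and 8.38 in DU145 (nc, miR-29b, siControl, siTET2), so its high arrays were those of the members, with siTET2 the highest in DU145. This likeness is a description over 8 arrays that share 4 constructs.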

How the data were processed

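The values used are log2 expression values that the authors deposited for 33297 probe sets on 8 Affymetrix whole transcript arrays. They were made with Affymetrix Expression Console and RMA per the submitters' processing notes. RMA corrects background, applies quantile normalization and summarises probes. The log base and which arrays were normalized together are not given in the sources used here, and the number of arrays limits the precision.

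Genes were named from the platform annotation: 19460 probe sets had 1 symbol, 1754 several and 12083 none listed. The probe set of highest mean stood for a gene. Members and lists were chosen with earlier results of these data known. Named genes were the members, TET2, the 3 largest differences per list among genes at or above the array's median of named genes, and the 10 nearest profiles. Other names are marked or stand beside their list.

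Differences within a line have no test. limma 3.58.1 (lmFit, eBayes, R 4.3.3) was fitted to genes with a mean at or above the median of means, and p-values were adjusted by Benjamini-Hochberg over all genes of a fit, with calls at 0.05. One fit had line and construct as terms (3 residual degrees of freedom), the other 6 group means with both controls of a line joined (2 residual degrees of freedom). The scripts were tested on simulated data. Alternatives were the control array, scaling, gene filter, variance prior, probe set rule, line term, level floor and leaving out each array. Motifs were counted in RefSeq promoter windows (GRCh38.p14).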

Additional observations from a re-analysis of the deposited data

Results flagged for a closer look

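In 4 cases a member differed in opposite directions in the lines, with 1 array per group, and the difference was not tested in the filtered fit because the gene was too dim to enter. For miR-29b minus nc, LNCaP minus DU145 came to 2.85 for IFIT2 (2.62 in LNCaP and -0.23 in DU145) and to 0.77 for OAS1 (0.68 and -0.09). For siTET2 minus siControl it came to 0.50 for IFIT2 (0.39 and -0.11) and to 0.58 for OAS2 (0.47 and -0.11). In the limma fit with no filter, which sets each treatment against both controls, the difference between the lines had an adjusted p of 0.423 for IFIT2 and 1 for OAS1 with miR-29b, and of 1 for IFIT2 and OAS2 with siTET2. For siTET2 in IFIT2 that fit gave a difference of -0.05, since the DU145 value depends on which control array is used.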

How the results depend on the processing

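Of the summary values of the members under the alternatives, 153 were labelled the same, 17 moved and 2 reversed. A median had to stay within the spread of the control arrays, and a 2-fold count within 1.5 times. A count of members called by limma had to be equal. Some of these limma counts could not change, as no member entered the stricter gene filter or the array left out was not in the comparison. The 153 are therefore no measure of stability. The spread used was the SD over genes of siControl minus nc, 0.277 in LNCaP and 0.189 in DU145. In DU145 the median of miR-29b minus nc went from -0.07 to -0.71 with siControl as the control and to -0.31 against the average of nc and siControl. The median of siTET2 minus siControl there went from -0.15 to 0.64 with nc and to 0.21 against that average, and 2 members in place of 0 were then 2-fold higher with nc. With the level floor, 2 members in place of 4 were 2-fold higher for siControl minus nc in DU145, as only 4 members reach the floor. Those 2, IFIT1 and OASL, reach it only on the siControl array, where they were high. This count is thus no check of the difference. With a trend in the variance prior, 1 member was called for miR-29b in LNCaP and 1 for the difference between the lines. Among all 9209 genes of that fit, the calls were 1 higher and 1 lower in LNCaP, and 1 higher for the difference. Leaving out 1 array gave 0 to 3 called members for miR-29b in LNCaP, 0 to 1 in DU145 and 0 to 3 for the difference. Without a control array that fit keeps 1 residual degree of freedom and gives every gene the same spread, so these calls are no support. When an array was left out, 233 member effects kept their sign and 23 turned it. In many of the 233 the array left out does not enter the comparison, so the effect could not change. The count is therefore no measure of stability. No paired analysis was possible because the labels give no replicate numbers and each group has 1 array; the common fit already compares constructs within a line. Dim probe sets (OAS2, IFIT3 and, on all arrays but LNCaP miR-29b, IFIT2 and OAS1) limit these results, as does the lack of replicates.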
